A study of Mus musculus with 14 samples.

Results

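The immediate early response genes described here are 10 genes, *Fos*, *Fosb*, *Jun*, *Junb*, *Atf3*, *Egr1*, *Nr4a1*, *Ier2*, *Dusp1* and *Btg2*. They were chosen by name, as the rows of the count tables whose gene symbol equals one of these names, and all 10 were found among the 23284 symbols counted. Of the 10 genes, 8 reached 1 CPM (reads of a gene scaled to the size of its library) in at least 3 samples and were tested among 12393 genes, whereas *Fos* and *Fosb* stayed below that level. The RNA was from mouse forelimb buds of the NMRI strain, and each of the 14 samples was the pair of forelimb buds of 1 embryo. Wild-type embryos (Smad4+/+, PrxCreT/+) and *Smad4*-deficient embryos (Smad4Δ/Δc, PrxCreT/+, called mutants below) were sampled at E10.0 (30 somites, n=3 and n=4) and at E10.5 (35 somites, n=3 and n=4). Both genotypes carry the *Prrx1*-CRE transgene, which removes *Smad4* from the limb bud mesenchyme, so that ectoderm, blood vessels and blood of the mutants keep their floxed copy beside the deleted one.

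Immediate early genes are transcribed within minutes of a stimulus such as a growth factor, stretch or tissue damage, without new protein synthesis, because the factors that switch them on (SRF with its ELK and MRTF partners, and CREB) are already present and are activated by signaling. Their transcripts are short-lived. Many of the proteins are transcription factors that start the next round of gene expression, and others, such as DUSP1, shut the signal off again. In limb buds, FGF from the apical ectodermal ridge signals through the MAP kinase pathway that feeds into these genes, while SMAD4 transmits BMP and TGFβ signals.

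The mm9 windows of 250 bases before the RefSeq transcription start were available for 8 of the 10 genes, all but *Egr1* and *Ier2*, and 4 are shown because they carry the CREB binding letters that the members share. The sequences were taken from RefSeq (GRCm38.p6) and each was matched exactly at 1 place of mm9: *Btg2* at chr1:135975733-135975982 on the minus strand, *Junb* at chr8:87502648-87502897 on the minus strand, *Fos* at chr12:86814590-86814839 on the plus strand and *Nr4a1* at chr15:101097027-101097276 on the plus strand. All 4 windows lie upstream of the annotated gene. Capitals mark the cyclic AMP response element TGACGTCA in *Btg2*, its 5-base core TGACG (or CGTCA on the other strand) in the other genes, and the TATA box TATAAA in *Fos*.
Btg2: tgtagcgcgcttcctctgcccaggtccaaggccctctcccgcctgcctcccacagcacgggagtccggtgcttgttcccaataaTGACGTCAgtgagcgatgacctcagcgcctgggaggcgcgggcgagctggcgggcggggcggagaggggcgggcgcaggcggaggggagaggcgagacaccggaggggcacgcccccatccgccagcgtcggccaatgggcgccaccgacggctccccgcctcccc
Fos: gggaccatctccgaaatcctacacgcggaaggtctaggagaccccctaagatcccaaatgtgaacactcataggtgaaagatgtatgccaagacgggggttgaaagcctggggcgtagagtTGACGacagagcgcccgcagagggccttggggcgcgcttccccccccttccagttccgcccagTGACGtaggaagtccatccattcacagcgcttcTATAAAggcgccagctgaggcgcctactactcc
Junb: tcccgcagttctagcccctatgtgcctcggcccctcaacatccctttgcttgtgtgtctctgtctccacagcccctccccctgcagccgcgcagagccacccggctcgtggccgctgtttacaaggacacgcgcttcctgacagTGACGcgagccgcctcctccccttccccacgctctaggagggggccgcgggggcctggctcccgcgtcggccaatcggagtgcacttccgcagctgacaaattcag
Nr4a1: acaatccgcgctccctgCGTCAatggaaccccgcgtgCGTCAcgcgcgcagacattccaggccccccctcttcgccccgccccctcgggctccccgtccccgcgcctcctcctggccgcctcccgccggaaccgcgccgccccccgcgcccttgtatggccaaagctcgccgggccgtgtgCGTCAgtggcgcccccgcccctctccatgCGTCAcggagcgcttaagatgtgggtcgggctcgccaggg

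Searched on both strands, the whole element TGACGTCA was in 2 of the 8 windows, those of *Btg2* (166 to 159 bases before the start) and *Dusp1* (143 to 136 bases before it), and in 1.55% of 32851 RefSeq windows of this length. The core TGACG, which every whole element also contains, was in 7 of 8 windows, all but that of *Jun*, against 17.8% of all windows. The 8 windows had 58.4% to 74.4% G and C, against a median of 52.4% for all windows. The part of this base content in the contrast was not tested. *Nr4a1* had 4 copies. The TATA box was in the *Fos* window and in 12.4% of all windows. No window held the 7-base AP-1 site (TGACTCA or TGAGTCA, in 4.46% of all windows), the CArG box of SRF (1.47%) or the palindromic SMAD binding element (0.167%). These matches describe letters in a short window, and no binding was measured here. Sites further upstream, and the promoters of *Egr1* and *Ier2*, were not searched.

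The libraries held 34066930 to 61691258 reads on genes. *Smad4*, the gene removed by CRE, stood at 152 to 169 CPM in the 6 wild-type embryos and at 32.9 to 46.0 CPM in the 8 mutants, so that every library matched its label. Mutant replicates 4 and 5 of both stages stood apart: the ribosomal RNA precursor *Rn45s* took 1.72% to 8.05% of their reads, against 0.151% to 0.478% in the other 10 libraries, and they had the fewest reads among the mutants of their stage. As only mutants have such libraries, results were also computed without these 4 samples. The 5 limb mesenchyme markers (*Prrx1*, *Tbx5*, *Twist1*, *Pdgfra*, *Msx1*) were read in every sample, at 1119 to 1662 CPM in sum. Markers of ectoderm (97.2 to 169 CPM), endothelium (240 to 311 CPM), embryonic red blood cells (2618 to 5039 CPM) and macrophages (2.62 to 14 CPM) were present too. In such bulk samples, fewer cells of a type and less RNA per cell cannot be told apart. Of the markers of these cell types, the globin *Hba-a1* was listed at 0 in all 14 samples. As only unique matches were counted, this 0 does not show that its transcript was absent.

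Most of the immediate early genes were expressed at low levels. Per kilobase of exon, the mean over all 14 embryos was 28.1 RPKM for *Ier2*, 6.36 for *Dusp1*, 4.57 for *Jun*, 4.53 for *Btg2*, 2.07 for *Nr4a1*, 1.61 for *Egr1*, 1.06 for *Atf3*, 0.914 for *Junb*, 0.237 for *Fos* and 0.027 for *Fosb*. The median of the tested genes with a known length (12181 genes) was 7.74 RPKM, so that only *Ier2* lay above it, at the 81.8th percentile. In this order, *Ier2* lay above *Dusp1*, *Dusp1* above *Jun*, *Btg2* above *Nr4a1*, *Junb* above *Fos* and *Fos* above *Fosb* in all 14 embryos. *Jun* and *Btg2* could not be ordered (*Jun* was higher in 8 of 14 embryos), and *Nr4a1*, *Egr1*, *Atf3* and *Junb* overlapped in part, with the upper gene of each pair of neighbours higher in 12, 12 and 10 of 14 embryos.

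**Figure D1:**
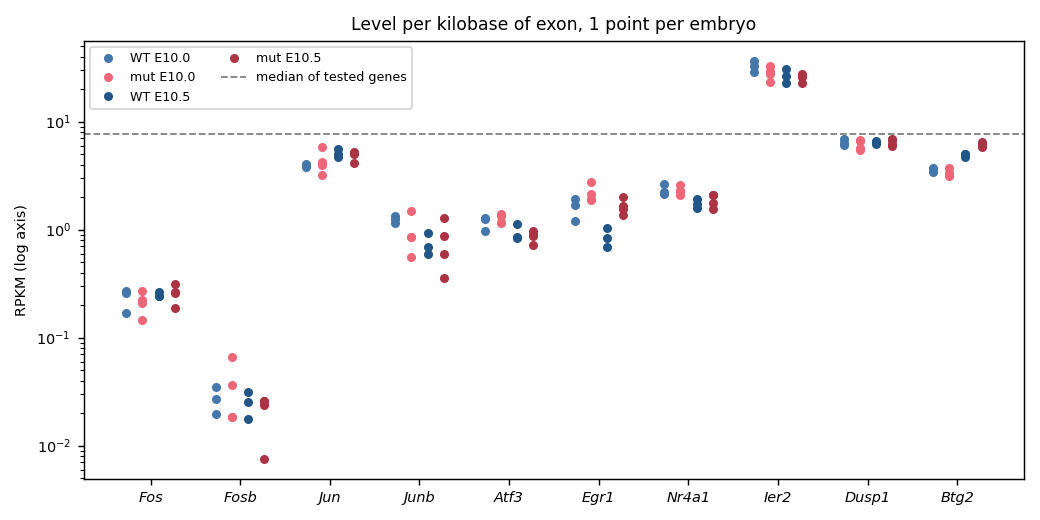
RPKM of the 10 genes on a log axis, 1 point per embryo, colored by group (3 wild-type (WT) and 4 mutant (mut) embryos per stage), with the median of the tested genes as a dashed line. *Ier2* alone lies above the line of 7.74 RPKM, and *Fos* and *Fosb* lie below 0.32 RPKM in every embryo.

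*Fos* and *Fosb* encode partners of JUN in the AP-1 transcription factor. *Fos* lies at chr12:86814840-86818223 (plus strand) and *Fosb* at chr7:19888070-19895394 (minus strand) of mm9, both protein-coding in the GENCODE annotation like the other 8 genes. *Fos* was covered by 18 to 35 reads per library. In wild-type embryos it stood at 0.640, 0.613 and 0.396 CPM at E10.0 and at 0.577, 0.628 and 0.569 CPM at E10.5 (here and below, wild-type values are in the order of replicates 1, 2 and 3). In mutants it stood at 0.342, 0.519, 0.492 and 0.639 CPM at E10.0 (replicates 1, 3, 4 and 5, in this order throughout) and at 0.445, 0.605, 0.736 and 0.619 CPM at E10.5 (replicates 1, 2, 4 and 5). The 4 groups overlap, and a count of 18 alone has an exact 95% Poisson interval of 10.7 to 28.4 reads, which covers counting error only. *Fosb* had 1 to 10 reads per library, at most 0.246 CPM, and its groups overlap as well. Exact two-sided permutation tests on log2 CPM, added after the data were seen, gave P values of 0.314 to 1 for *Fos* and 0.371 to 0.857 for *Fosb* over the 4 comparisons, and the smallest P these designs allow is 0.0571 for 3 against 4 embryos, 0.1 for 3 against 3 and 0.0286 for 4 against 4.

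*Jun* (chr4:94715725-94718913, minus strand) encodes the central AP-1 subunit. At E10.0 *Jun* stood at 12.8, 12.1 and 12.7 CPM in wild type and at 10.3, 12.5, 18.6 and 13.6 CPM in mutants. At E10.5 *Jun* stood at 15.0, 16.1 and 17.7 CPM in wild type and at 13.3, 16.6, 16.4 and 16.1 CPM in mutants. The genotypes overlap at both stages, with mutant replicate 4 far above the others at E10.0 and mutant replicate 1 below the others at E10.5, whereas the wild-type embryos of the later stage all lie above those of the earlier one. The log2 fold change between stages in wild type was 0.38 (SE 0.0734, adjusted P=0.159, edgeR's exact test with P adjusted by Benjamini and Hochberg) and did not pass, but without mutant replicates 4 and 5 it was 0.39 with an adjusted P of 0.0241. In mutants it was 0.19 (SE 0.193, adjusted P=0.424) with all samples, 0.40 (adjusted P=0.0670) without mutant replicates 4 and 5 and 0.36 (adjusted P=0.0297) without mutant replicate 4 of E10.0 alone, and it passed in both of the latter fits. An antisense gene, BC042782, overlaps *Jun* in the annotation, and reads of both cannot be told apart because the counting ignored strand.

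*Junb* (chr8:87500811-87502617, minus strand) encodes an AP-1 subunit that often counteracts JUN. At E10.0 *Junb* stood at 2.10, 2.25 and 2.40 CPM in wild type and at 1.01, 1.54, 2.70 and 1.55 CPM in mutants. At E10.5 *Junb* stood at 1.68, 1.08 and 1.25 CPM in wild type and at 0.640, 1.07, 2.29 and 1.56 CPM in mutants. At both stages mutant replicate 4 is the highest embryo and mutant replicate 1 the lowest, so that the mutant range encloses the wild-type one. The log2 fold change of mutants over wild type at E10.0 was -0.41 (SE 0.297, adjusted P=0.565) with all samples and -0.80 (adjusted P=0.0461) without mutant replicates 4 and 5. At E10.5 it was 0.04 (SE 0.435, adjusted P=0.999) and -0.63 (adjusted P=0.335), respectively. In wild type, *Junb* was 2.25 ± 0.149 CPM at E10.0 and 1.34 ± 0.311 CPM at E10.5 (SD, n=3 each) without overlap, a log2 fold change of -0.75 that did not pass with all samples (adjusted P=0.209) and passed without mutant replicates 4 and 5 (adjusted P=0.0343).

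*Atf3* (chr1:192994175-193007219, minus strand) encodes a stress-induced factor that pairs with JUN and often represses. At E10.0 *Atf3* stood at 1.92, 2.47 and 2.53 CPM in wild type and at 2.77, 2.65, 2.35 and 2.26 CPM in mutants. At E10.5 *Atf3* stood at 2.26, 1.67 and 1.71 CPM in wild type and at 1.94, 1.74, 1.42 and 1.79 CPM in mutants. The genotypes overlap at both stages, while all mutants at E10.5 lie below all mutants at E10.0. In mutants *Atf3* fell between the stages by 0.54 on the log2 scale (SE 0.119, adjusted P=0.0217 by edgeR's exact test), a decrease kept in 20 of 21 alternative fits and lost without mutant replicates 4 and 5 (-0.55, adjusted P=0.130). Of the 21 fits, 14 left out 1 library, and those without a wild-type library kept every mutant. In wild type the log2 fold change was -0.30 (SE 0.190, adjusted P=0.434), and the difference between the genotypes was itself not significant (interaction -0.24 on the log2 scale, adjusted P=0.957 by edgeR's quasi-likelihood test).

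*Egr1*, which encodes a zinc finger transcription factor induced through the MAP kinase pathway, had the largest log2 fold change between genotypes of the 8 tested genes. The gene lies at chr18:35020861-35024638 on the plus strand of mm9. At E10.5 *Egr1* stood at 2.62, 3.18 and 2.12 CPM in wild type and at 4.20, 4.78, 6.17 and 5.08 CPM in mutants. Every mutant lies above every wild-type embryo at this stage. Mean levels were 2.64 ± 0.530 CPM (SD, 3 embryos) and 5.06 ± 0.828 CPM (SD, 4 embryos), a log2 difference of 0.93 (SE 0.204), or 1.90-fold, with an adjusted P of 0.00099 by edgeR's exact test. The increase was called in all 21 alternative fits, with log2 fold changes of 0.77 to 1.10 and adjusted P of 0.000256 to 0.0554, and mutant replicates 4 and 5 were the 2 highest embryos. Of these fits, 14 left out 1 library. Those without an E10.0 library kept all E10.5 embryos, so that the log2 fold change could hardly move (0.93 to 0.94).

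At E10.0, *Egr1* stood at 3.69, 5.95 and 5.22 CPM in wild type and at 5.87, 8.48, 5.98 and 6.66 CPM in mutants. The lowest mutant lies just under the highest wild-type embryo. The log2 fold change was 0.45 (SE 0.239, P=0.0264 and adjusted P=0.203 by edgeR's exact test) and did not pass, and it was 0.55 (adjusted P=0.0959) without mutant replicates 4 and 5. Between the stages, *Egr1* fell in wild type by 0.90 on the log2 scale (SE 0.266, adjusted P=0.00189), without overlap and in all 21 alternative fits. In mutants the log2 fold change was -0.42 (SE 0.168, adjusted P=0.1004), with overlap, and 9 of 21 alternatives called it, among them the fit with the replicate number as a block (-0.45, adjusted P=0.0853). The interaction of 0.48 (adjusted P=0.950 by edgeR's quasi-likelihood test) did not pass, so that the genotype effect is not shown to differ between the stages. An antisense gene, Gm17507, overlaps *Egr1* in the annotation, and their reads cannot be told apart.

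*Nr4a1* (chr15:101097277-101105223, plus strand) encodes an orphan nuclear receptor that acts without a known ligand. At E10.0 *Nr4a1* stood at 5.28, 6.54 and 5.46 CPM in wild type and at 5.18, 5.64, 6.39 and 5.63 CPM in mutants. At E10.5 *Nr4a1* stood at 4.23, 4.79 and 3.92 CPM in wild type and at 3.84, 5.15, 4.33 and 5.18 CPM in mutants. The genotypes overlap at both stages, and the stages do not overlap in wild type or in mutants, where 5.182 and 5.178 CPM meet almost exactly. The log2 fold change between stages was -0.42 in wild type (SE 0.128, adjusted P=0.113) and -0.31 in mutants (SE 0.122, adjusted P=0.139), and neither passed by the exact test. DESeq2 called both (adjusted P of 0.0627 and 0.0746). Both also passed when the replicate number was a block in the quasi-likelihood fit (-0.42, adjusted P=0.0497 in wild type and -0.38, adjusted P=0.0299 in mutants).

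*Ier2* (chr8:87185230-87186751, minus strand) encodes a small protein of the immediate early response family, and it was the most abundant of the 10 genes. At E10.0 *Ier2* stood at 43.6, 55.8 and 49.7 CPM in wild type and at 35.1, 42.0, 50.3 and 45.0 CPM in mutants. At E10.5 *Ier2* stood at 46.4, 40.5 and 34.9 CPM in wild type and at 34.3, 40.1, 41.9 and 39.7 CPM in mutants. All groups overlap. The log2 fold change between genotypes at E10.0 was -0.21 (SE 0.149, adjusted P=0.387), and it was -0.35 (adjusted P=0.0609) without mutant replicates 4 and 5, where it passed.

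*Dusp1* (chr17:26642535-26645464, minus strand), which encodes a phosphatase that inactivates MAP kinases, had the narrowest range of the 10 genes. At E10.0 *Dusp1* stood at 16.4, 17.2 and 18.6 CPM in wild type and at 15.4, 14.6, 18.2 and 17.9 CPM in mutants. At E10.5 *Dusp1* stood at 17.4, 16.7 and 17.7 CPM in wild type and at 16.0, 16.7, 18.7 and 18.4 CPM in mutants. All groups overlap, the highest embryo was 1.28 times the lowest, and mutant replicates 4 and 5 were the highest mutants at both stages. Its log2 fold changes ranged from -0.08 to 0.08 over the 4 comparisons, with SE of 0.0578 to 0.0945.

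*Btg2* (chr1:135971747-135975697, minus strand) encodes an antiproliferative protein that promotes shortening of messenger RNA tails. At E10.0 *Btg2* stood at 10.1, 9.32 and 9.88 CPM in wild type and at 10.3, 8.52, 9.10 and 8.93 CPM in mutants. At E10.5 *Btg2* stood at 13.0, 13.7 and 13.7 CPM in wild type and at 17.7, 16.9, 16.8 and 16.0 CPM in mutants. The genotypes overlap at E10.0, every embryo of E10.5 lies above every embryo of E10.0, and every mutant lies above every wild-type embryo at E10.5. *Btg2* rose between the stages by a log2 fold change of 0.46 in wild type (SE 0.0423, adjusted P=0.00279) and of 0.87 in mutants (SE 0.0646, 1.83-fold, adjusted P=1.99e-15), in all 21 alternative fits of each.

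At E10.5, *Btg2* averaged 13.5 ± 0.388 CPM (SD, 3 embryos) in wild type and 16.9 ± 0.698 CPM (SD, 4 embryos) in mutants, a difference of 0.32 on the log2 scale (SE 0.0385), or 1.25-fold (adjusted P=0.0826 by edgeR's exact test). This call is close to the threshold of 0.1. It held in 10 of 21 alternative fits, including without mutant replicates 4 and 5 (0.37, adjusted P=0.0884), and was lost when any 1 E10.5 library, or wild-type replicate 1 or 2 of E10.0, was left out (adjusted P of 0.105 to 0.329), although the log2 fold change stayed between 0.31 and 0.37. The interaction was 0.41 on the log2 scale (adjusted P=0.355 by edgeR's quasi-likelihood test) and did not pass.

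**Figure D2:**
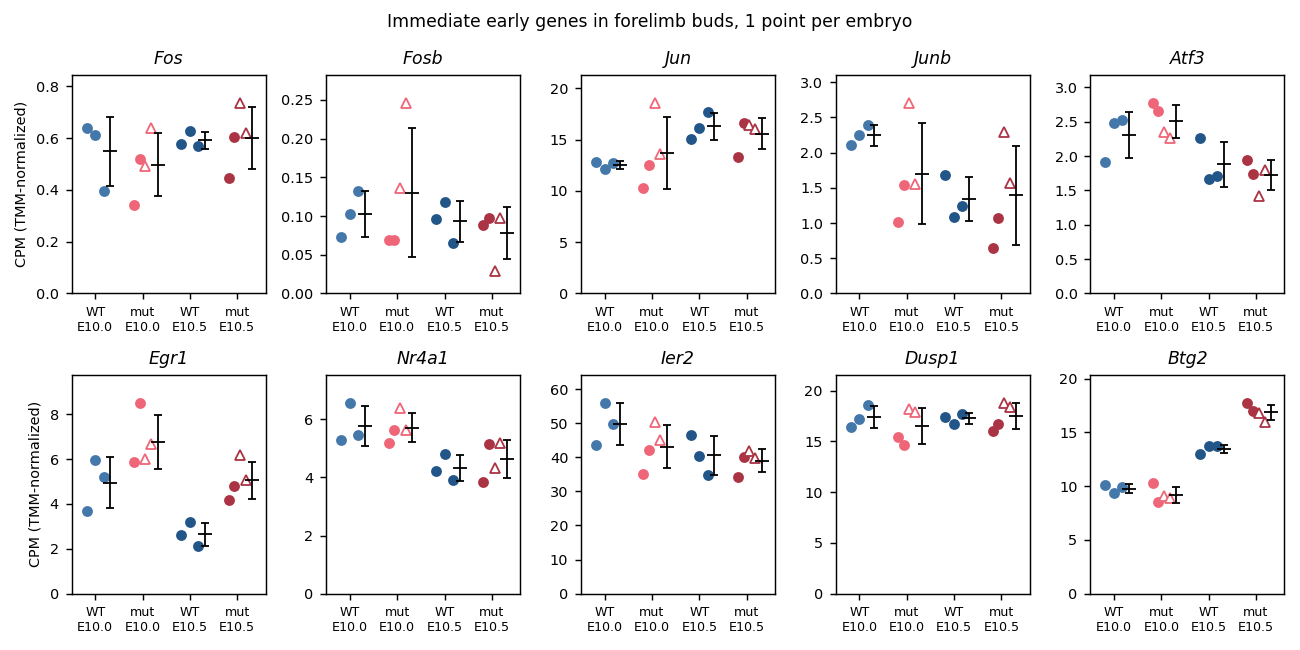
TMM-normalized CPM of each gene (linear axes from 0), 1 point per embryo, in wild type (WT) and mutants (mut) at both stages, with the mean ± SD beside the points; open triangles are mutant replicates 4 and 5. At E10.5 the *Egr1* and *Btg2* mutants all lie above wild type, and the *Junb* mutants spread from 0.640 to 2.29 CPM.

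Set side by side, the comparisons share samples: each genotype comparison and each stage comparison uses the same groups in turn, so that their values are not independent. To be called, a gene had to have an adjusted P not above 0.1 and to differ 1.2-fold or more. At E10.0, mutants against wild type, 0 of the 8 genes were called by edgeR's exact test, while 3.33% of all tested genes were called higher and 3.28% lower. The quasi-likelihood test and DESeq2 also called 0, and 1 gene, *Egr1*, had an unadjusted P under 0.05 with each tool. None of the 8 genes had groups without overlap, against 17.8% of all tested genes. Without mutant replicates 4 and 5, 3 of 8 were called, *Egr1* higher and *Junb* and *Ier2* lower, at 2018 of 12288 genes called (16.42%) in that fit.

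At E10.5, 2 of 8 genes were called, both higher in mutants (*Egr1* and *Btg2*), against 2.19% of all tested genes called higher and 1.54% lower. The same 2 genes had groups without overlap, against 13.0% of tested genes. The median log2 fold change of the 8 genes was 0.03, and that of all tested genes -0.01. Of the 5 limb mesenchyme markers, *Twist1* and *Prrx1* were called lower and *Pdgfra* higher in mutants at this stage, and the sum of the 5 was 1514 to 1662 CPM in wild type and 1369 to 1597 CPM in mutants. None of the 5 ectoderm, 5 endothelium, 4 tested macrophage, 4 muscle precursor or 4 tested erythroid markers was called. The 1 tested marker of neural crest and Schwann cell precursors, *Erbb3*, was called lower without overlap (-0.42, adjusted P=0.0394, and -0.40 with an adjusted P of 0.182 without mutant replicates 4 and 5), and that list summed to 10.8 to 11.2 CPM in wild type and 8.06 to 10.4 CPM in mutants. The part of these markers in the 2 genes' difference was not tested.

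Between the stages in wild type, 1 gene rose (*Btg2*) and 1 fell (*Egr1*), against 5.39% of tested genes called higher and 4.74% lower. *Jun*, *Junb*, *Egr1*, *Nr4a1* and *Btg2* (5 of 8) had groups without overlap, against 37.0% of tested genes. The median log2 fold change of the 8 genes was -0.30, and that of all tested genes -0.01. The wild-type count depended on the fit, as did the count over all genes. DESeq2 called 3 of 8 (*Nr4a1* in addition) and 11.47% of tested genes. Without mutant replicates 4 and 5, 5 of 8 were called (*Btg2*, *Egr1*, *Ier2*, *Jun*, *Junb*) and 14.86% of tested genes. When only the wild-type samples were fitted, 6 of 8 were called (these 5 and *Nr4a1*) and 15.94% of tested genes, against 10.13% with all samples.

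In mutants, *Btg2* rose and *Atf3* fell, against 10.8% of tested genes called higher and 8.40% lower. *Atf3*, *Nr4a1* and *Btg2* (3 of 8) had groups without overlap, against 20.0% of tested genes. The median log2 fold change was -0.22, and that of all tested genes -0.01. When the replicate number entered the fit as a block, 4 of 8 were called (*Egr1* and *Nr4a1* lower in addition) and 20.87% of tested genes, against 19.16% without it. Without mutant replicates 4 and 5, 3 of 8 were called (*Btg2*, *Egr1*, *Jun*) and 17.5% of tested genes. Cell type markers moved with stage too. Of the macrophage markers, 3 of the 4 tested (*Csf1r*, *Fcgr3*, *Ptprc*) rose in both genotypes, the sum of the 5 markers went from 2.62 to 4.73 CPM up to 7.93 to 9.74 CPM in wild type and from 4.65 to 6.86 CPM up to 9.51 to 14 CPM in mutants, and no marker was at 0. Of the 5 limb mesenchyme markers, *Msx1* fell in both genotypes and *Tbx5* and *Pdgfra* rose in mutants, and the sum of the 5 went from 1245 to 1466 CPM up to 1514 to 1662 CPM in wild type and from 1119 to 1334 CPM up to 1369 to 1597 CPM in mutants. Of the 4 muscle precursor markers, *Myf5* rose in both genotypes, *Lbx1* fell in wild type and *Pax3* fell in mutants, and of the 5 endothelium markers, *Kdr* fell in mutants. The part of these markers in the stage differences was not tested. For the interaction of stage and genotype, 0 of 8 genes were called by the quasi-likelihood test, against 0.186% of tested genes, with 1 unadjusted P under 0.05 (*Btg2*). DESeq2 called 0 as well.

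The spread between embryos differed widely among the genes. The biological coefficient of variation (BCV, the spread beyond counting error that edgeR estimates) had a median of 10.2% over all tested genes. It was 28.4% for *Junb*, above 99.0% of tested genes, 17.0% for *Egr1*, 14.4% for *Atf3*, 13.6% for *Jun*, 12.6% for *Nr4a1*, 11.2% for *Ier2*, 9.47% for *Dusp1* and 8.96% for *Btg2*. As the BCV is larger in genes of few reads, each gene was also set beside the 500 tested genes closest to it in abundance. *Junb* then exceeded 96.4% of them, *Jun* 87.0%, *Egr1* 81.8% and *Ier2* 81.2%, while *Atf3* exceeded 17.0% and *Btg2* 3.6%. The BCV pools all groups. The SD of log2 CPM of *Junb* at E10.0 and E10.5 was 0.0956 and 0.326 in wild type and 0.583 and 0.785 in mutants. For *Jun* it was 0.0446 and 0.119 in wild type and 0.356 and 0.151 in mutants. *Egr1* (0.356 and 0.292 against 0.244 and 0.231) and *Atf3* (0.222 and 0.243 against 0.139 and 0.193) went the other way.

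Part of this spread was common to several genes. After subtraction of each group's mean, Pearson's r over the 14 embryos, which share their libraries and depth, was 0.72 for *Junb* with *Ier2*, 0.72 for *Junb* with *Dusp1*, 0.70 for *Jun* with *Junb* and 0.67 for *Ier2* with *Nr4a1* (Spearman's rho 0.76, 0.76, 0.42 and 0.63). *Btg2* went the other way, with r of -0.70 with *Ier2*, -0.58 with *Egr1* and -0.55 with *Junb*. Of all 28 pairs, 16 had a positive r and the median r was 0.05, so that the 8 genes did not vary as 1 block. The mutant replicates 1 of both stages, which are different embryos, were below their group means for *Jun*, *Junb*, *Egr1*, *Nr4a1*, *Ier2* and *Dusp1* and above them for *Atf3* and *Btg2*. Both mutant replicates 4 and 5 were above the other mutants at both stages for *Junb* and *Dusp1*, as was the case for 17.5% of tested genes. The part of the *Rn45s*-rich libraries in these deviations was not tested.

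The 5 non-member genes whose deviations were most like the mean standardized deviation of the 8 genes, of 12377 compared over 14 embryos, were *Isyna1* (r=0.95), *1700019E19Rik* (0.94), *Imp4* (0.94), *Creb3l1* (0.94) and *Sirt6* (0.94). The median r of all compared genes was -0.02. The 5 were picked as the highest of these r values, and how high r would be by such picking alone was not tested.

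**Figure D3:**
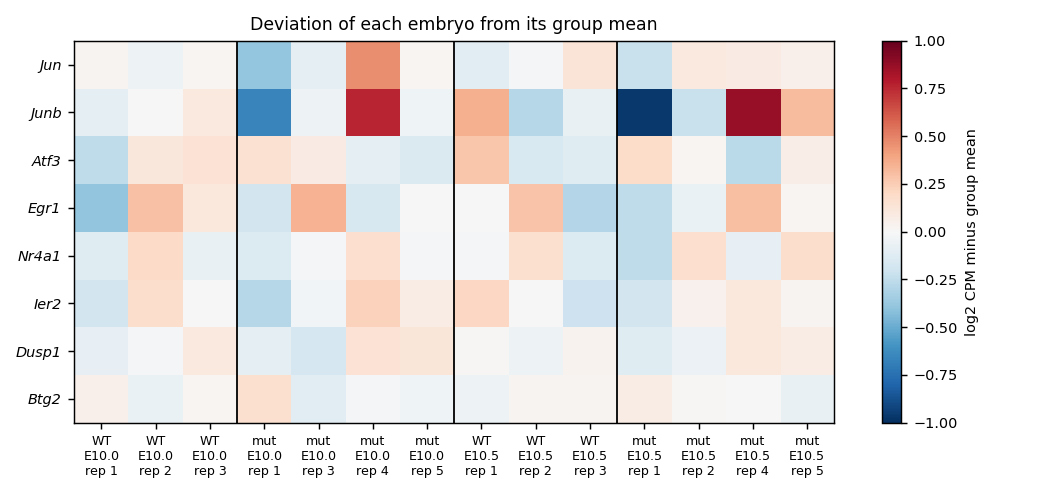
Log2 CPM of each embryo minus its group mean (color scale from -1 to 1) for the 8 tested genes, with lines between the 4 groups (WT, wild type; mut, mutant; rep, replicate). *Junb* runs from -0.97 in mutant replicate 1 to 0.87 in mutant replicate 4 at E10.5, while *Btg2* stays within 0.16 of its group means.

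A second list of 48 rapid-response genes gave a wider view, and 40 of them were tested. *Egr2*, *Egr3*, *Egr4*, *Fosl1*, *Nr4a3*, *Arc*, *Npas4* and *Ptgs2* stayed under the filter, as *Fos* and *Fosb* did. Between genotypes, 0 of 40 were called at E10.0 by edgeR's exact test (1 with an unadjusted P under 0.05), against 6.61% of all tested genes. The quasi-likelihood test and DESeq2 called 0 as well, against 4.85% and 8.03% of all tested genes. Without mutant replicates 4 and 5, 4 of 40 were called, 1 higher and 3 lower, against 16.42% of all genes tested in that fit. At E10.5, 1 of 40 was called, against 3.73% of all tested genes. This was *Gadd45a*, a stress and growth arrest gene, at 6.46, 6.38 and 7.90 CPM in wild type and 8.59, 9.19, 9.62 and 9.12 CPM in mutants. Its groups do not overlap, and the log2 fold change was 0.40 (SE 0.105, adjusted P=0.0549), and it was 0.37 with an adjusted P of 0.209 without mutant replicates 4 and 5. The call was also lost in 5 of 14 fits that left out 1 library (mutant replicate 2, 4 or 5 or wild-type replicate 1 or 2 of E10.5).

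Between the stages, 5 of 40 rose and 4 fell in wild type, where 5.39% of all tested genes rose and 4.74% fell, and 9 rose and 4 fell in mutants, where 10.8% rose and 8.40% fell. *Dusp5*, a nuclear phosphatase of ERK, fell in both genotypes, by 1.06 on the log2 scale in wild type (SE 0.334, adjusted P=0.00210) and by 1.27 in mutants (SE 0.189, adjusted P=3.58e-06). *Myc*, a growth-promoting transcription factor, fell by 0.57 and 0.61, respectively (SE 0.103 and 0.183). *Btg1*, the closest relative of *Btg2*, rose by a log2 fold change of 0.48 in wild type (SE 0.0913, adjusted P=0.00250) and 0.59 in mutants (SE 0.126, adjusted P=7.01e-07). The relative *Tob1* rose in wild type by 0.47 (SE 0.110), and *Klf10* rose in mutants by 0.60 (SE 0.0871). *Ier5* rose by 0.35 in wild type and 0.48 in mutants, and *Ctgf* rose in mutants by 0.66 (SE 0.149). *Dusp2* fell in wild type by 0.71 (SE 0.182). Of these wild-type calls, *Myc*, *Tob1* and *Dusp2* were lost without wild-type replicate 2 of E10.0. *Dusp2* and *Ier5* were lost without wild-type replicate 2 or 3 of E10.5, and *Ier5* without wild-type replicate 3 of E10.0. Only the called genes of smallest P were named per comparison, so a gene named for a single genotype may change in the other too. *Tob1* in mutants (10.4 to 14.3 CPM, then 16.0 to 18.8 CPM) also rose without overlap. So did *Klf10* in wild type (16.2 to 19.0 CPM, then 21.1 to 23.9 CPM). The stages overlap for *Dusp2* in mutants (2.85 to 4.54 CPM, then 2.21 to 3.02 CPM). The median log2 fold change of the list was -0.04 in wild type and 0.02 in mutants, and 0 of 40 passed the interaction test of edgeR's quasi-likelihood fit, with 0 unadjusted P under 0.05 and 0 calls by DESeq2. Of all tested genes, 0.186% passed that interaction test and DESeq2 called 0.7%.

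Of 21 regulator genes, 19 were tested. The list holds genes that act upstream, such as *Srf*, the ELK and CREB factors and MAP kinases. It also holds the NAB proteins, which bind EGR proteins and so act on products of immediate early genes. *Nab1*, which encodes a corepressor that binds EGR proteins, was called in both genotype comparisons. At E10.0 *Nab1* stood at 22.3, 24.0 and 21.4 CPM in wild type and at 35.8, 35.1, 31.3 and 31.9 CPM in mutants. At E10.5 *Nab1* stood at 21.5, 22.6 and 22.6 CPM in wild type and at 34.8, 29.2, 28.7 and 30.8 CPM in mutants. The genotypes do not overlap at either stage. *Nab1* rose by a log2 fold change of 0.57 (SE 0.0693, adjusted P=4.49e-06) and 0.48 (SE 0.0676, adjusted P=0.000327), respectively, and was called without mutant replicates 4 and 5 (0.67 and 0.54) and with each single library left out.

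Of the regulator genes, *Nab1* included, 2 of 19 were called between genotypes at E10.0 (5 of 19 without mutant replicates 4 and 5, 2 higher and 3 lower) and 1 of 19 at E10.5 (3 of 19 without them). Of all tested genes, 6.61% were called at E10.0 (16.42% without these replicates) and 3.73% at E10.5 (4.27% without them). The kinase gene *Rps6ka1* was the other regulator gene called between genotypes, lower in mutants at E10.0 (-0.27, SE 0.0560, adjusted P=0.0914), and it was lost without mutant replicates 4 and 5 (adjusted P=0.157), by the quasi-likelihood test and in 9 of 14 fits that left out 1 library. Between the stages, *Srf* fell in wild type by 0.35 (SE 0.0795, adjusted P=0.0642) and in mutants by 0.32 (SE 0.148, adjusted P=0.0250), and *Map2k1*, which encodes the kinase MEK1, by 0.27 and 0.28 (SE 0.0524 and 0.106). The calls of both in wild type were lost by the quasi-likelihood test (adjusted P of 0.111 for each). *Srf* kept its call in 10 of 14 fits without 1 library in wild type and in 12 of 14 in mutants, where mutant replicate 4 of E10.0 and replicate 1 of E10.5 mattered, and *Map2k1* in 4 and 10 of 14. In mutants *Elk3* rose by 0.35 (SE 0.0421) and *Nab2* by 0.38 (SE 0.113).

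Of 8 heat shock genes, which encode stress-induced chaperones and their partners, 7 were tested and 0 were called between genotypes at either stage by edgeR's exact test (1 and 0 with an unadjusted P under 0.05), the quasi-likelihood test or DESeq2. Without mutant replicates 4 and 5, 2 of 6 were called lower in mutants at E10.0. Between the stages, *Hsph1* fell in wild type by 0.31 (SE 0.0603, adjusted P=0.0331) and in mutants by 0.33 (SE 0.0889), and *Hsp90aa1* fell in mutants by 0.31 (SE 0.0629). The *Hsph1* call in wild type was kept in 10 of 14 fits without 1 library. Of all tested genes, 4.74% were called lower in wild type and 8.40% in mutants.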

How the data were processed

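RNA was measured by RNA-seq in 14 samples. Per the labels and the study's methods, the authors mapped the reads to mm9 with TopHat (2.0.13), kept unique matches and deposited raw counts per gene symbol from htseq-count without strand. Of 23284 symbols, 1041 on X, Y and M were dropped. The 12393 genes that reached 1 CPM in 3 or more samples were fitted with edgeR (4.0.16): TMM normalization, common and tag-wise dispersions over all 14 samples (prior of 10 degrees of freedom), exact test, Benjamini-Hochberg adjustment, adjusted P at most 0.1 and fold change at least 1.2. The interaction was tested with edgeR's quasi-likelihood test. SE are from the replicate variances of log2 CPM. RPKM used GENCODE vM1 exon lengths. All adjusted P values are over all genes tested. The fits were tested on simulated data.

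The genes named were the 10 members, *Smad4*, called genes of 3 lists (up to 6 with the smallest P per comparison) and the 5 genes most like the members in deviation. The untested rapid-response genes were named after their values were seen. The members and lists were chosen with earlier results of these data known. Alternatives were DESeq2 (1.42.0), the quasi-likelihood test, RLE size factors, no filter on low counts, only the groups compared, replicate numbers as a block, samples left out singly and mutant replicates 4 and 5 left out together. For each comparison of 2 groups these made 21 fits, 14 of them without 1 library. A library outside the 2 groups acts only through the filter, normalization and dispersions. Leaving it out therefore barely tests the fold change. Each replicate was 1 embryo, and the lowest chi-square per degree of freedom between replicates was 12.2, so that none was a copy. The labels do not say what a replicate number stands for. Same-numbered mutants of the 2 stages, which are different embryos, had r of 0.50, 0.55 and 0.24 for numbers 1, 4 and 5. Some differently numbered mutants reached similar values: 0.30 (E10.0 replicate 3 with E10.5 replicate 2), 0.28 (1 with 2, and 4 with 5) and 0.23 (5 with 4). The remaining differently numbered mutant pairs had r of -0.48 to 0.083. The deviations are therefore not shown to follow the number. Values with the replicate number as a block are given where they change a call of that comparison.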

Additional observations from a re-analysis of the deposited data

Results flagged for a closer look

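In the mutants at E10.5, 1 embryo stood far from the other 3 for 2 genes. For *Fosb* it was replicate 4, with 1 read (0.028 CPM against 0.089 to 0.098 CPM), and the gap was 0.873 of the whole range. For *Jun* it was replicate 1, at 13.3 CPM against 16.1 to 16.6 CPM, and the gap was 0.833 of the range. Dixon's 95% critical value for 4 samples is 0.829. Of the 20 groups of 4 embryos tested, 2 passed it, and chance flags about 1 in 20. A count of 1 read has an exact Poisson interval of 0.025 to 5.57 reads, which covers the 3 to 5 reads of the other 3 embryos.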

How the results depend on the processing

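Replicate numbers 4 and 5 occur only in mutants, so for genotype the block fit and the fit without these mutants are not separate checks. The number of members called at E10.0 was 0 and became 1 (*Junb*) with the replicate number as a block, where 15.82% of all tested genes were called. It became 3 without mutant replicates 4 and 5, where 16.42% were called, against 6.61% with all samples. It stayed at 0 with each library left out. At E10.5 it was 2, became 1 without a filter on low counts and with the block, and was 1 to 2 with single libraries left out; *Btg2* was the gene lost each time. For stage in wild type it was 2, became 3 by DESeq2 (*Nr4a1*), 6 with only the groups compared, 5 with the block and 5 without mutant replicates 4 and 5, and was 2 to 3 with single libraries left out (*Jun* without mutant replicate 1 or 4 of E10.0, *Ier2* without wild-type replicate 1 of either stage, *Nr4a1* without mutant replicate 1 of E10.5). For stage in mutants it was 2, became 4 by DESeq2 and 4 with the block (both with *Egr1* and *Nr4a1*), 3 with RLE size factors (*Egr1*) and 3 without mutant replicates 4 and 5 (*Egr1* and *Jun* gained, *Atf3* lost), and was 2 to 4 with single libraries left out (*Egr1* and *Nr4a1* without mutant replicate 1 of E10.0, *Egr1* and *Jun* without mutant replicate 4 of E10.0, and *Egr1* without wild-type replicate 1 or 2 of E10.0 or mutant replicate 4 of E10.5). For stage in mutants, 19.16% of all tested genes were called with all samples, 19.63% by DESeq2 and 19.08% with RLE size factors. With the block it was 20.87%, and without mutant replicates 4 and 5 it was 17.5%. The members called with the block for stage in wild type were *Btg2*, *Egr1*, *Jun*, *Junb* and *Nr4a1*. Of all tested genes, the block called 14.15% in that comparison and 2.26% for genotype at E10.5. The interaction had 0 calls throughout. Where a count moved, the cause was not tested.

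Some uncalled log2 fold changes turned sign. For genotype at E10.0 these were *Jun* (-0.0278 with the block, -0.12 without mutant replicates 4 and 5, -0.0511 to 0.25 with single libraries left out) and *Nr4a1* (0.0028 by DESeq2, 0.0036 with RLE size factors, 0.0049 without a filter, -0.0753 to 0.0861 with single libraries left out). For genotype at E10.5 they were *Junb* (-0.48 with the block, -0.63 without mutant replicates 4 and 5, -0.32 to 0.30 with single libraries left out), *Dusp1* (-0.0872, -0.0663 and -0.0216 to 0.0616, in the same order), *Jun* (-0.112 to 0.0142), *Ier2* (-0.148 to 0.0556) and *Atf3* (-0.19 to 0.0415). For stage they were *Dusp1* in wild type (0.0017 without mutant replicates 4 and 5, -0.0512 to 0.0451 with single libraries left out) and *Junb* in mutants (-0.30 with all samples, -0.66 to 0.0046 with single libraries left out). The *Jun* interaction was -0.19 with all samples and 0.0069 without mutant replicates 4 and 5.

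In the 2 genotype comparisons and for stage in wild type, same-numbered embryos did not vary together (r of -0.22 to 0.13 over the 4 pairs between genotypes and of -0.22 to -0.07 over the 3 wild-type pairs between stages), and there the replicate block rests on a shared number alone. Counts limited *Fos* and *Fosb*, at 1 to 35 reads.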
